A study of Mus musculus with 6 samples.

Results

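The 41 genes described here are type I interferon-stimulated genes of the mouse. They were chosen by symbol, with no measured value in the rule but with earlier results of these data known. They cover antiviral effectors, sensors of foreign nucleic acid, the ISG15 system and the transcription factors of the response. All 41 were in the deposited table of 54532 genes, and all 41 were among the 9443 genes tested. RNA-seq was carried out on bone marrow-derived macrophages, the macrophages that marrow progenitors give in culture, with 3 libraries from NSUN2-KO mice and 3 from NC mice. NSUN2 methylates cytosines of RNA, tRNAs above all. The cells of both groups had received LPS, a bacterial cell wall component sensed by TLR4, and IFN-γ, the stimuli that bring macrophages to the M1 state. The labels do not say how the knockout was made, what NC stands for, or the strain, age or sex of the mice. Unstimulated cells were not analysed here, so the values are levels after stimulation and not the size of the induction.

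Type I interferons are secreted when a cell detects microbial RNA, DNA or LPS, and they act on the receptor IFNAR of the same and neighbouring cells. The receptor's kinases switch on the transcription complex ISGF3, which holds STAT2 and IRF9. ISGF3 binds the interferon-stimulated response element (ISRE) in the promoters of many genes, whereas IFN-γ acts mainly at another element, the GAS site. The products of these genes block viral entry, translation and replication, and some of them, such as IRF7 and USP18, strengthen or dampen the response itself.

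The ISRE is the sequence feature that many of these promoters share, so the stretches holding it are shown first. RefSeq promoter windows (GRCm38.p6, 250 bases before to 50 after the start site) were at hand for 31 of the 41 genes. Its core was searched on both strands as GAAA, any 2 bases and GAAA again (TTTC, 2 bases and TTTC on the other strand). It was found in 16 of the 31, against 3.99% of the 27025 genes of the window table and 4.47% of the 6997 tested genes with a window. In Ifih1, Ddx58 and Eif2ak2 the only match did not lie wholly before the start site. A GAS-like TTCNNNGAA, a palindrome, was found in 6 of the 31, against 9.55% of all and 8.10% of the tested genes. In the lines below capitals mark each core match, the flanks are lower case, and every stretch is written 5′ to 3′ on the strand of its gene. They come from chr19:34640770-34640828 (Ifit1, plus strand), chr19:34583358-34583431 (Ifit3, plus), chr19:34607754-34607827 (Ifit3b, plus), chr19:34602048-34602087 (Ifit1bl1, minus), chr12:26456548-26456587 (Rsad2, minus), chr4:156200860-156200911 (Isg15, minus), chr5:120907526-120907560 (Oas1a, minus), chr5:120777710-120777749 (Oas3, minus), chr10:128270261-128270300 (Stat2, plus) and chr8:71537572-71537617 (Bst2, minus).
Ifit1: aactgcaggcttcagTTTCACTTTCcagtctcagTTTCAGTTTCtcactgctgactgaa
Ifit3: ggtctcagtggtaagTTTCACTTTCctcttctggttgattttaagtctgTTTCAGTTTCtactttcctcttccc
Ifit3b: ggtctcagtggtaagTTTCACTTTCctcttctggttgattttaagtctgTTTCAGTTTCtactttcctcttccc
Ifit1bl1: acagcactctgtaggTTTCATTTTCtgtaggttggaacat
Rsad2: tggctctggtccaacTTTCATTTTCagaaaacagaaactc
Isg15: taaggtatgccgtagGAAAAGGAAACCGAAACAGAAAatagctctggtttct
Oas1a: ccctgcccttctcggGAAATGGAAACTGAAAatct
Oas3: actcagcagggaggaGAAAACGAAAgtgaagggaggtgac
Stat2: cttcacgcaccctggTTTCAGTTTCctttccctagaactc
Bst2: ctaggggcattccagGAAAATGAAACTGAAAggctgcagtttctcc

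The Ifit3 and Ifit3b stretches are the same letter for letter. The Ifit1 stretch serves 2 windows, since Ifit1bl2 starts on the opposite strand next to it and its window holds the same interval. Core matches of the printed genes began between 222 bases (Stat2) and 14 bases (Oas1a) before the RefSeq start site. Of the genes with a window, the core was found in 3 of the 6 that rose, 1 of the 2 that fell and 12 of the 23 that were not called. Cmpk2, Ifi44, Samd9l and Irf7 had no such letters in their windows.

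Depth was 35019033 to 45636131 reads per library, recovered from the deposited FPKM values (fragments scaled to library depth and gene length). Nsun2, the targeted gene, measured 1.88, 2.04 and 1.84 FPKM in the NC libraries against 0.967, 1.36 and 0.863 FPKM in the knockouts, and fell by 0.51 on the log2(FPKM + 1) scale (limma adjusted p = 0.0228; exact two-sided permutation p = 0.1, the smallest that 3 against 3 allows). The call was lost when any library but NSUN2-KO replicate 2 was left out (limma adjusted p from 0.0534 to 0.0845). The Y-linked Ddx3y measured 6.10 to 6.95 FPKM in NC and had 0 reads in NSUN2-KO, and the X-inactivation transcript Xist measured 14.5 ± 0.881 FPKM in NC libraries and 30.6 ± 1.20 FPKM in the knockouts (SD, n = 3). Sex-linked expression thus went with genotype, and for every difference given here sex and genotype cannot be told apart. None of the 41 genes lies on X or Y. The series text calls the libraries biological replicates, 3 per group in one place and 2 in another, without naming animals, so p-values measure the spread between these libraries. In bulk RNA, fewer cells of a type and less RNA per cell cannot be told apart.

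Interferon-stimulated genes were among the most abundant mRNAs of these macrophages in both groups. Their median level was 130 FPKM, where the median of all tested genes was 6.38 FPKM. Of the 41, 23 exceeded 100 FPKM and 4 exceeded 1000 FPKM, levels that 408 and 34 of the 9443 tested genes reached. Rsad2, which encodes the antiviral enzyme viperin, was the 7th most abundant gene of the whole table, followed among the members by Ifit2, Isg15 and Cmpk2. At the other end, Ifit1bl2 measured 1.21 to 1.90 FPKM, on 187 to 253 reads per library. Every other member rested on at least 2405 reads in each library. Summed over the 41 genes, FPKM made up 4.99% to 5.15% of all FPKM in the NC libraries and 5.03% to 5.09% in the NSUN2-KO libraries, so the ranges overlapped.

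The summed level was alike in both groups while single genes moved up or down by small amounts. Genes were compared with limma on log2(FPKM + 1), and an adjusted p below 0.05 over all 9443 tested genes was taken as a change. Of the 41 genes, 7 rose in NSUN2-KO (Ifit1bl1, Ifi44, Samd9l, Ifit3b, Ifit1, Cmpk2 and Usp18), 3 fell (Ifi27l2a, Rsad2 and Irf7) and 31 were not called. Among all tested genes 4.19% rose and 4.30% fell, against 17.1% and 7.32% of the members. These percentages were not matched for level or GC content, and members were far more abundant (median 130 FPKM, against 6.38 FPKM for tested genes). With only genes averaging 5 FPKM or more kept, 413 rose and 450 fell out of 5410. Of the 40 members kept, 9 rose and 3 fell. All 3 NSUN2-KO values lay above all 3 NC values for 15 members and below them for 7, where 14.4% and 16.7% of all tested genes did so. The median log2 fold change of the members was 0.03, beside -0.01 over all tested genes. For 28 of the 41 the NSUN2-KO mean was within 10% of the NC mean. Replicates were tight, with a median SD of 2.86% of the group mean. Leaving out NC replicate 1, 2 or 3 left 6, 4 and 3 that rose, and leaving out replicate 1, 2 or 3 of NSUN2-KO left 2, 4 and 7. The number that fell was 1 without replicate 1 of NSUN2-KO and 2 or 3 otherwise.

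**Figure D1:**
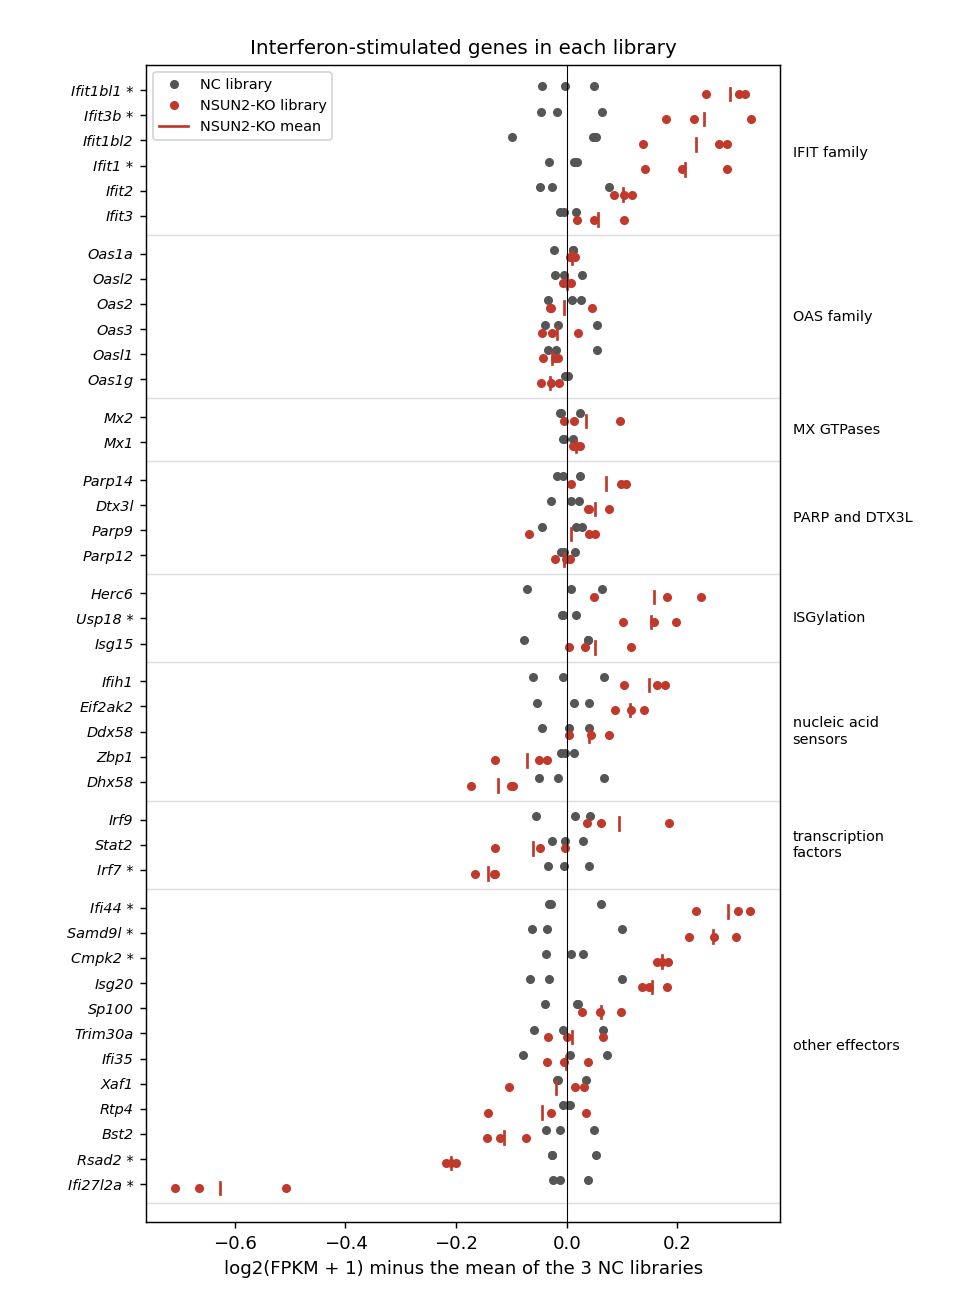
Each row is 1 interferon-stimulated gene, grouped by family; points are single libraries (NC grey, NSUN2-KO red) on log2(FPKM + 1) minus the NC mean, the bar is the NSUN2-KO mean, and an asterisk marks limma adjusted p below 0.05. All 6 IFIT genes have every red point to the right of the grey ones, the OAS genes lie around 0, and Ifi27l2a is far to the left of all others.

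In the IFIT family 3 of the 6 genes rose in NSUN2-KO, where 4.19% of all tested genes rose, and the other 3 were not called. IFIT proteins are tetratricopeptide repeat proteins, of which IFIT1 binds viral RNA lacking the cap methylation of the host's mRNA and blocks its translation. The 6 genes lie in 1 cluster on chromosome 19. In each of them every NSUN2-KO value exceeded every NC value, which was the case for 14.4% of all tested genes. The summed level of the family was 3490 ± 109 FPKM in the NC libraries against 3867 ± 85.9 FPKM in the knockouts (SD, n = 3 libraries each).

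Ifit1bl1 (ENSMUSG00000079339, GRCm38 chromosome 19, 34592888 to 34601968, minus strand) measured 461, 432 and 445 FPKM in the NC libraries against 553, 557 and 531 FPKM in the knockouts. It rose by 0.29 on the log2(FPKM + 1) scale (SE 0.04, limma adjusted p = 0.00311), the largest rise among the members on this scale. By the ratio of group means the low-level Ifit1bl2, which was not called, stood higher, at 130% of NC against 123% for Ifit1bl1. Ifit1 (34640871 to 34650009, plus strand), the family's founding member, measured 725, 699 and 722 FPKM in the NC libraries against 826, 874 and 789 FPKM in the knockouts (log2 fold change 0.21 with an SE of 0.04; limma, adjusted p = 0.0217). No Ifit1 value of one group reached the range of the other. Ifit3b (34607970 to 34613401) measured 40.6, 39.7 and 43.0 FPKM in the NC libraries against 48.4, 52.0 and 46.7 FPKM in the knockouts (log2 fold change 0.25 with an SE of 0.05; limma, adjusted p = 0.0230). Its more abundant near copy Ifit3 measured 408, 416 and 410 FPKM in the NC libraries against 425, 442 and 417 FPKM in the knockouts (log2 fold change 0.06, limma adjusted p = 0.297). Of the 50-base windows of Ifit3 transcripts, 51.2% also occur in Ifit3b, so the split of reads between the pair is uncertain. Ifit2 measured 1975, 1811 and 1840 FPKM in the NC libraries against 2032, 2014 and 1988 FPKM in the knockouts (log2 fold change 0.10, limma adjusted p = 0.145); NC replicate 1 lay close to the lowest NSUN2-KO value. Ifit1bl2 had a log2 fold change of 0.23 (limma adjusted p = 0.118).

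The OAS family showed no call, and its members sat close to the NC level. OAS1, OAS2 and OAS3 proteins make 2′-5′ oligoadenylate, a signal molecule of the antiviral response, when they bind double-stranded RNA. Log2 fold changes of the 6 genes ran from -0.03 (Oas1g) to 0.01 (Oas1a), and their 95% confidence intervals lay between -0.10 and 0.08. Oas1a measured 175, 179 and 180 FPKM in the NC libraries against 179, 180 and 179 FPKM in the knockouts. Oasl1, the most abundant of the family, measured 572, 608 and 577 FPKM in the NC libraries against 576, 579 and 568 FPKM in the knockouts, with overlapping groups. Oas2, Oas3 and Oasl2 also had overlapping groups, with log2 fold changes of -0.005, -0.02 and 0.0004. Oas1g measured 54.3, 54.4 and 54.4 FPKM in the NC libraries against 53.8, 53.3 and 52.6 FPKM in the knockouts, the 1 member of the family whose groups did not overlap (log2 fold change -0.03 with an SE of 0.03; limma, adjusted p = 0.566). Oas1a and Oas1g share 57.6% of the 50-base windows of the Oas1a transcript, so reads of this pair are uncertain too, and Oasl1 overlaps the antisense transcript Gm13822 (mean 17.9 FPKM).

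The MX GTPases, dynamin-like proteins that trap viral nucleocapsids, likewise had no call. Mx1 measured 755, 747 and 746 FPKM in the NC libraries against 762, 758 and 755 FPKM in the knockouts (log2 fold change 0.02, 95% confidence interval -0.04 to 0.08). Mx2 measured 201, 197 and 196 FPKM in the NC libraries against 200, 212 and 197 FPKM in the knockouts (log2 fold change 0.03, 95% confidence interval -0.05 to 0.11). Both genes had overlapping groups.

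None of the 4 genes of the PARP group was called. PARP9 forms a complex with the ubiquitin ligase DTX3L, and PARP12 and PARP14 are ADP-ribosyltransferases with antiviral roles. Parp14 had the largest difference, with 281, 273 and 275 FPKM in the NC libraries against 298, 278 and 296 FPKM in the knockouts (log2 fold change 0.07 with an SE of 0.03; limma, adjusted p = 0.249). Dtx3l measured 92.0 to 95.3 FPKM in the NC libraries against 96.4 to 99.0 FPKM in the knockouts, without overlap of the groups (log2 fold change 0.05, limma adjusted p = 0.327). Its head-to-head neighbour Parp9 had a log2 fold change of 0.01, and Parp12 of -0.01, with overlapping groups in both. The bodies of Parp9 and Dtx3l overlap on opposite strands, and the sources used here do not say whether strand was used in counting.

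In the ISG15 system only Usp18 was called. ISG15 is a ubiquitin-like modifier, HERC6 is the ligase that attaches it in the mouse, and USP18 removes it and also blocks the receptor subunit IFNAR2. Usp18 (chromosome 6, 121245906 to 121270917) measured 151, 154 and 151 FPKM in the NC libraries against 174, 170 and 163 FPKM in the knockouts. It rose by 0.15 (SE 0.03, limma adjusted p = 0.0291). Isg15 itself measured 1502, 1627 and 1628 FPKM in the NC libraries against 1622, 1718 and 1588 FPKM in the knockouts, with overlapping groups (log2 fold change 0.05, 95% confidence interval -0.05 to 0.15). Herc6 measured 42.3, 38.4 and 40.7 FPKM in the NC libraries against 46.0, 48.0 and 41.8 FPKM in the knockouts (log2 fold change 0.16 with an SE of 0.06; limma, adjusted p = 0.133), and NSUN2-KO replicate 3 fell within the NC range.

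The 5 nucleic acid sensors had values on both sides and no call. Ifih1 encodes MDA5, the sensor of long double-stranded RNA, and measured 48.6, 44.4 and 46.1 FPKM in the NC libraries against 52.5, 52.0 and 49.9 FPKM in the knockouts (log2 fold change 0.15 with an SE of 0.04; limma, adjusted p = 0.0712). Eif2ak2 encodes PKR, the kinase that halts translation on double-stranded RNA, and measured 55.2 to 59.1 FPKM in the NC libraries against 61.1 to 63.4 FPKM in the knockouts (log2 fold change 0.11, limma adjusted p = 0.0928). Ddx58, which encodes RIG-I, had overlapping groups (log2 fold change 0.04). On the other side, Dhx58, which encodes LGP2, the RIG-I-like receptor without signalling domains, measured 47.2, 51.2 and 48.3 FPKM in the NC libraries against 45.5, 43.2 and 45.6 FPKM in the knockouts (log2 fold change -0.12 with an SE of 0.04; limma, adjusted p = 0.112). Zbp1, the sensor of Z-form nucleic acid that can start necroptosis, measured 90.5 to 92.0 FPKM in the NC libraries against 83.2 to 88.9 FPKM in the knockouts (log2 fold change -0.07, limma adjusted p = 0.234). Groups did not overlap for Ifih1, Eif2ak2, Dhx58 and Zbp1.

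Among the 3 transcription factors Irf7 fell. IRF7 is the interferon-induced factor that drives transcription of interferon genes and so amplifies the response. Irf7 (chromosome 7, 141262706 to 141266481, minus strand) measured 708, 745 and 722 FPKM in the NC libraries against 662, 662 and 646 FPKM in the knockouts. It fell by 0.14 on the log2(FPKM + 1) scale (SE 0.03, limma adjusted p = 0.0291), to 90.6% of the NC level. The call was lost without NC replicate 2, NC replicate 3 or any of the NSUN2-KO replicates (limma adjusted p from 0.0605 to 0.110). The ISGF3 subunits Stat2 and Irf9 had overlapping groups, with log2 fold changes of -0.06 (95% confidence interval -0.15 to 0.03) and 0.09 (95% confidence interval -0.02 to 0.21). Reads of Irf9, which overlaps Rnf31 on the same strand, are uncertain.

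The remaining 12 effectors held the largest difference of all members. Ifi27l2a, a small membrane protein strongly induced by interferon, measured 457, 473 and 453 FPKM in the NC libraries against 282, 324 and 290 FPKM in the knockouts. Every NSUN2-KO value lay far below every NC value. Ifi27l2a (ENSMUSG00000079017, chromosome 12, 103442167 to 103443680, minus strand) fell by 0.63 (SE 0.05, limma adjusted p = 0.000676), to 64.8% of NC. The neighbouring family member Ifi27, which is not among the 41 and was looked at after its neighbour's value was seen, measured 3.95, 5.14 and 4.27 FPKM in the NC libraries against 4.89, 4.31 and 5.06 FPKM in the knockouts (log2 fold change 0.08, limma adjusted p = 0.622). Ifi27l2b, the other neighbour, was listed at 0 in all 6 libraries.

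Rsad2 and Cmpk2 moved in opposite directions. The pair lies head to head on chromosome 12, with 12751 bases between the gene bodies and no other gene of the table in that interval. RSAD2 (viperin) makes the chain terminator ddhCTP from CTP, and CMPK2 is a mitochondrial nucleotide kinase that supplies CTP and dCTP precursors. Rsad2 (26442746 to 26456452, minus strand) measured 3472, 3288 and 3288 FPKM in the NC libraries against 2914, 2895 and 2878 FPKM in the knockouts, a fall of 0.21 (SE 0.03, limma adjusted p = 0.0103). Cmpk2 (26469204 to 26479837, plus strand) measured 1250, 1231 and 1193 FPKM in the NC libraries against 1390, 1380 and 1372 FPKM in the knockouts, a rise of 0.17 (SE 0.03, limma adjusted p = 0.0135). Their ratio within each library, which does not depend on the scaling of that library, was 2.78, 2.67 and 2.76 in NC and 2.097, 2.097 and 2.098 in NSUN2-KO (exact two-sided permutation p = 0.1, the smallest possible with 3 against 3). The ratio was chosen after both values were seen. The ISRE core printed above stands before Rsad2, and Cmpk2's window held none.

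**Figure D2:**
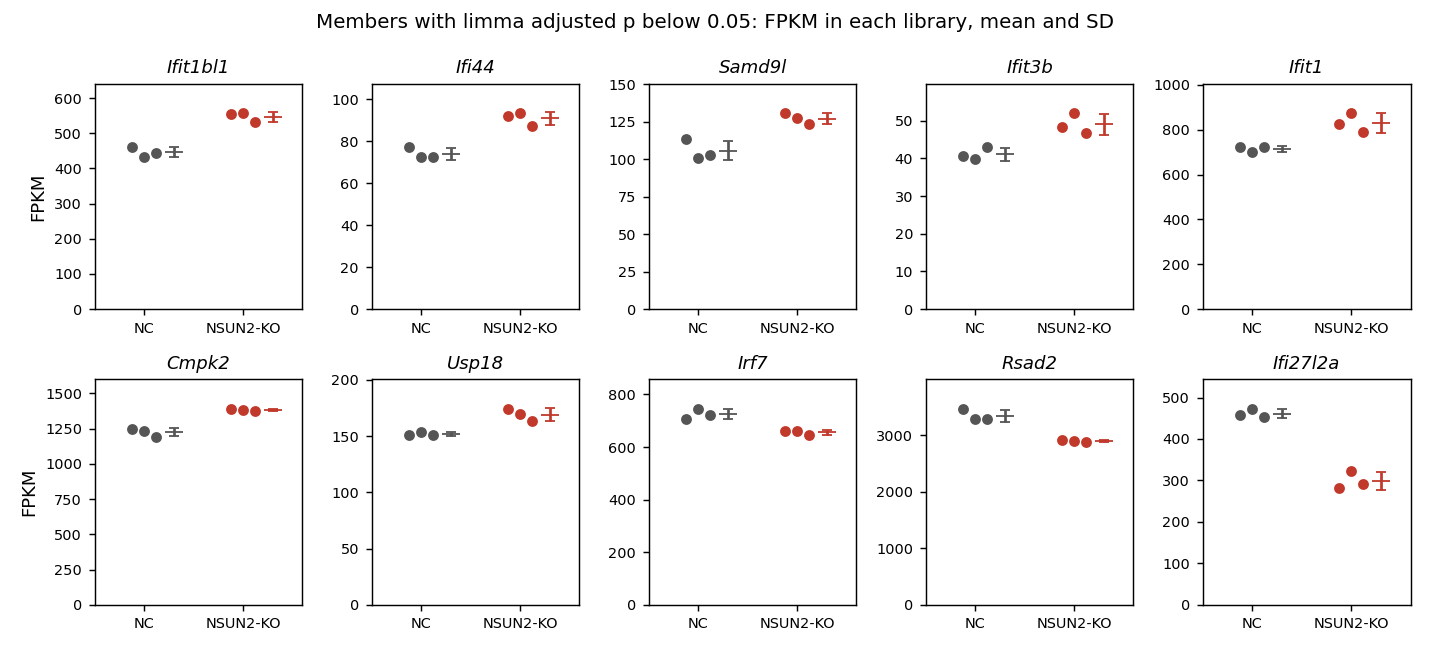
FPKM of the 10 interferon-stimulated genes with limma adjusted p below 0.05, from the largest rise to the largest fall; points are single libraries, the bar with whiskers is the mean and SD of 3 libraries, and each axis starts at 0. Groups do not overlap in any of the 10, and apart from Ifi27l2a the differences are small beside the level.

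Ifi44 and Samd9l rose as well. Ifi44, an interferon-induced cytoplasmic protein, measured 77.2, 72.5 and 72.3 FPKM in the NC libraries against 92.0, 93.4 and 87.2 FPKM in the knockouts (log2 fold change 0.29 with an SE of 0.04; limma, adjusted p = 0.00618). Samd9l, which restricts poxviruses by inhibiting translation, measured 113, 101 and 103 FPKM in the NC libraries against 131, 127 and 123 FPKM in the knockouts (log2 fold change 0.26 with an SE of 0.05; limma, adjusted p = 0.0167). Isg20, an RNA exonuclease, measured 68.2, 76.6 and 69.8 FPKM in the NC libraries against 78.6, 79.3 and 81.1 FPKM in the knockouts (log2 fold change 0.15 with an SE of 0.05; limma, adjusted p = 0.0804). Bst2, or tetherin, which holds budding virions at the cell surface, measured 984, 1045 and 1002 FPKM in the NC libraries against 913, 929 and 960 FPKM in the knockouts (log2 fold change -0.11 with an SE of 0.03; limma, adjusted p = 0.0886). Sp100, a nuclear body protein, also had groups that did not overlap (log2 fold change 0.06, limma adjusted p = 0.296). The other uncalled effectors, Trim30a, Rtp4, Xaf1 and Ifi35, had overlapping groups and log2 fold changes from -0.05 to 0.01.

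How firmly each call stood differed between the genes. Ifi27l2a, Ifi44 and Ifit1bl1 stayed past the threshold under all 17 alternatives, the 6 that leave out 1 library included. With no filter on low genes the other 7 lost their calls (limma adjusted p from 0.0844 for Samd9l to 0.205 for Rsad2). Without the mean-variance trend Cmpk2, Ifit1, Ifit3b, Usp18 and Irf7 lost theirs (limma adjusted p from 0.0562 to 0.0968). Among the fits that leave out 1 library, Rsad2 lost its call without NSUN2-KO replicate 1 (limma adjusted p = 0.0553). Cmpk2 lost it when NC replicate 3 or knockout replicate 1 was absent (limma adjusted p = 0.0762 and 0.0743). Ifit1 lost it when NC replicate 2 or 3 or knockout replicate 1 was absent (limma adjusted p from 0.0735 to 0.0796). Samd9l lost it without NC replicates 2 or 3 or NSUN2-KO replicates 1 or 2 (limma adjusted p from 0.0514 to 0.0720). Ifit3b lost it without NC replicates 1 or 2 or NSUN2-KO replicates 1 or 2 (limma adjusted p from 0.0526 to 0.0794), and Usp18 without any library but NSUN2-KO replicate 3 (limma adjusted p from 0.0666 to 0.118).

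**Figure D3:**
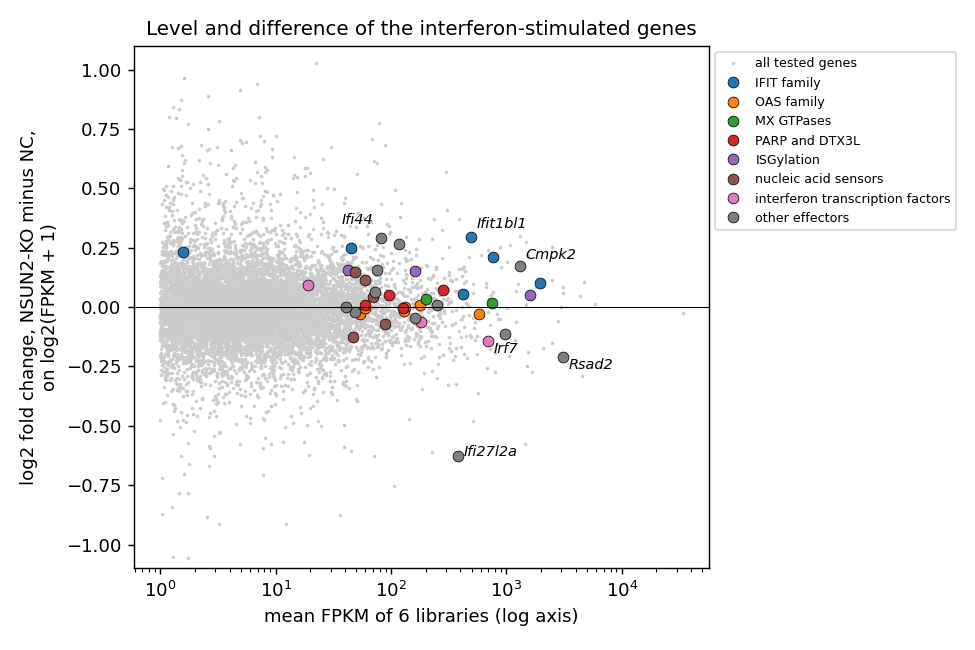
Mean FPKM of the 6 libraries (log axis) against the log2 fold change, NSUN2-KO minus NC on log2(FPKM + 1), for all tested genes (light grey) and the 41 members (coloured by family); 7 tested genes lie outside the drawn range. Most members lie to the right of the bulk of tested genes, Ifit1bl2 at the far left is the exception, and Ifi27l2a at -0.63 stands apart from the others.

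Fold changes of the members went with base composition. GC content is that of the longest GENCODE vM21 transcript of each gene. Over the 41 members the Spearman correlation of GC content with the log2 fold change was -0.65 (Pearson -0.53), and over 9433 tested genes it was -0.37 (Pearson -0.27). These are descriptions across genes that share the same 6 libraries. Among the 14 members of lowest GC content (38.8% to 45.8%), 6 rose and 1, Rsad2, fell. Of the 14 of highest GC content (51.0% to 57.4%), none rose and 2, Irf7 and Ifi27l2a, fell. Shares of all tested genes called in these same GC ranges were not computed. Over all tested genes, whatever their GC content, 4.19% rose and 4.30% fell. The IFIT genes had a median GC content of 43.1% and the OAS genes of 51.8%.

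With the trends over GC content and gene length taken out of every library, 8 members rose and 2 fell. Isg20 then passed the test (log2 fold change 0.22, limma adjusted p = 0.00806), and Irf7 lost its call (log2 fold change -0.08, limma adjusted p = 0.0709). The other 9 calls were the same genes with the same signs. The correlation over the members was then -0.43 (Spearman), beside -0.02 over all tested genes.

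**Figure D4:**
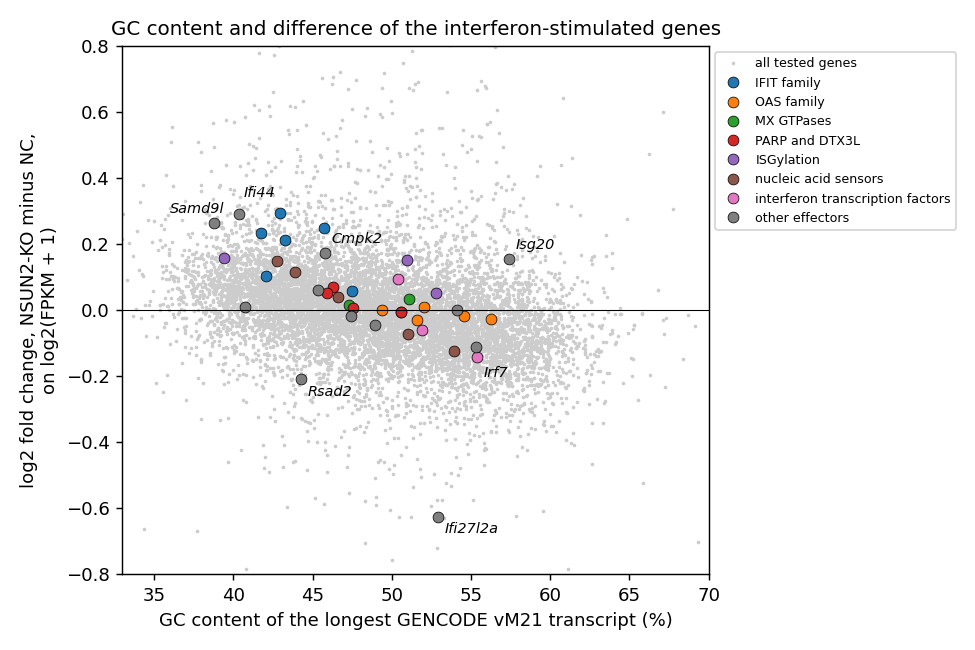
GC content of each gene's longest transcript (%) against the log2 fold change, NSUN2-KO minus NC on log2(FPKM + 1), for all tested genes (light grey) and the 41 members (coloured by family). Outside the drawn range of GC content, of log2 fold change or of both lie 39 tested genes. Members of low GC content such as Samd9l and Ifi44 lie above 0 and members of high GC content such as Irf7 below it, with Rsad2 and Isg20 away from that trend.

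Genes upstream of the interferon-stimulated genes were read from a list of 33 genes of interferon induction and receptor signalling, of which 30 were tested: 2 rose, 1 fell and 27 were not called, with a median log2 fold change of -0.06. These counts of calls are near the background, since 4.19% of all tested genes rose and 4.30% fell. Of the 30, 9 had a log2 fold change above 0. All 3 NSUN2-KO values lay above all 3 NC values for 4 of the 30 and below them for 8. Among all tested genes 14.4% and 16.7% did so. Ifnb1, which encodes IFN-β, measured 1.93, 3.64 and 2.18 FPKM in the NC libraries against 1.13, 1.75 and 1.85 FPKM in the knockouts, on 34 to 125 reads per library (log2 fold change -0.46 with an SE of 0.18; limma, adjusted p = 0.164). Its groups did not overlap, and NC replicate 2 was the highest of the 6. Ifna4 and Ifna5 were listed at 0 in every library. Irf1, an IFN-γ-induced transcription factor, measured 259 to 265 FPKM in the NC libraries and 256 to 264 FPKM in the knockouts, with overlapping groups. Jak2, a kinase of the IFN-γ receptor, rose from 60.9 ± 1.40 to 70.6 ± 1.87 FPKM (a log2 fold change of 0.21; limma, adjusted p = 0.0111). Tlr3, the endosomal receptor for double-stranded RNA, rose from 12.7 ± 1.01 to 16.6 ± 1.05 FPKM (a log2 fold change of 0.36; limma, adjusted p = 0.0175). Tmem173, which encodes the DNA-sensing adaptor STING, fell from 26.2 ± 1.43 to 21.5 ± 0.614 FPKM (a log2 fold change of -0.27; limma, adjusted p = 0.0141; SD, n = 3). Jak2 and Tmem173 lost their calls when NC replicate 3 or knockout replicate 1 was absent, and Tlr3 without NC replicates 2 or 3 or NSUN2-KO replicates 1 or 2 (limma adjusted p from 0.0563 to 0.0713). Socs3, Irf8 and Ifnar2 had the next smallest p-values, with log2 fold changes of -0.13, -0.17 and -0.11 (limma adjusted p = 0.0516, 0.0526 and 0.0952).

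Of the 53 other interferon-inducible antiviral genes with a value, 51 were tested: 1 rose, 2 fell and 48 were not called, with a median log2 fold change of 0.01. These counts of calls too are near the 4.19% and 4.30% of all tested genes. All 3 NSUN2-KO values lay above all 3 NC values for 6 of the 51 and below them for 9. Among all tested genes 14.4% and 16.7% did so. Ifi30, the lysosomal thiol reductase GILT, fell from 58.1 ± 1.75 to 44.0 ± 1.70 FPKM (log2 fold change -0.39 with an SE of 0.04; limma, adjusted p = 0.00160). The nuclear body gene Sp140 rose from 63.8 ± 1.44 to 71.7 ± 2.00 FPKM (limma adjusted p = 0.0259; SD, n = 3). Sp140 kept its call only without replicate 2 of NSUN2-KO, out of the 6 fits that leave out 1 library. The next smallest p-values belonged to Ifi203, Ifitm6 and Pnpt1, with log2 fold changes of 0.17, -0.44 and 0.21 (limma adjusted p = 0.0507, 0.0509 and 0.0679).

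Markers of other cells that make or answer to interferon were measured beside these results. The macrophage markers Adgre1, Csf1r, Cd68, Itgam, Lyz2, Mertk, Fcgr1 and Cd14 were all expressed. Their summed level was 3929 to 4018 FPKM in the NC libraries against 3368 to 3409 FPKM in the knockouts. Of the 8, Lyz2, Cd68 and Fcgr1 fell and Cd14 rose, where 4.30% of all tested genes fell and 4.19% rose. Lyz2 fell to 67.0% of its NC mean (log2 fold change -0.58, limma adjusted p = 0.000282), and Cd14 rose to 122%. Of 8 plasmacytoid dendritic cell markers, 7 had a mean below 1 FPKM, Siglech had at most 0.0153 FPKM in any library, and the summed level was 4.12 to 4.59 FPKM in the NC libraries against 4.32 to 4.88 FPKM in the knockouts, most of it Tcf4. Neutrophil markers summed to 98.9 to 106.9 FPKM in the NC libraries against 79.7 to 83.7 FPKM in the knockouts. Of the 5 tested, 3 (Csf3r, Mmp8 and S100a9) fell and none rose, where 4.30% of all tested genes fell. Of the 9 neutrophil markers, 4 had a mean below 1 FPKM: Ly6g, Cxcr2, Ngp and Retnlg, the last at 0. The part of the macrophage and neutrophil markers in the differences above was not tested. Conventional dendritic cell markers summed to 2.99 to 3.13 FPKM in the NC libraries against 3.41 to 4.55 FPKM in the knockouts, most of it Xcr1. The 5 fibroblast markers summed to 1.45 to 1.61 FPKM in NC libraries and 0.674 to 0.845 FPKM in the knockouts, each with a mean below 1 FPKM; Col1a1, the highest of them, was at 29.4% of its NC mean. Their part in the differences above was not tested. The 9 T and NK cell and 6 B cell markers each had a mean below 1 FPKM.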

How the data were processed

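RNA-seq was carried out on M1-polarized macrophages, 3 NSUN2-KO and 3 NC libraries. The authors deposited FPKM values per gene; the submitters' processing notes name CASAVA 1.8, fastp, HISAT2 2.0.5, featureCounts 1.5.0-p3, DESeq2 1.20.0 and GRCm38 (mm10). FPKM multiplied by the deposited gene length gave whole reads for 100% of values in every library (tolerance 0.01 reads). Genes averaging 1 FPKM or more were compared on log2(FPKM + 1) with limma 3.58.1 (R 4.3.3; mean-variance trend, Benjamini-Hochberg over 9443 genes, adjusted p below 0.05). Fold changes on this scale understate the change of low genes. The script was tested on simulated data. All members are described, with values per library for those called and for the member of largest difference in each family; in the other lists the 6 smallest p-values were named. The members and lists were chosen with earlier results of these data known. Promoter windows and start sites are RefSeq's (GRCm38.p6), and GC content is that of GENCODE vM21 transcripts. Alternatives changed the pseudocount, the filter, the scaling, the test (limma voom on recovered reads), the replicate block and the GC and length trend, or left out 1 library. Some results of the other lists are not reported here.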

Additional observations from a re-analysis of the deposited data

How the results depend on the processing

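Of genes changed, all tested, there were 802; with no filter there were 265, with no variance trend 526, 1372 with limma voom on recovered reads, and 276 to 596 with 1 library left out. Members that rose (7) numbered 2 with no filter, 3 without the trend, 12 with voom and 2 to 7 with 1 library left out; those that fell (3) numbered 1 with no filter and 1 to 3 with 1 library left out. In the induction list, the number higher (2) was 1 with no filter and 0 to 2 with 1 library left out, and the number lower (1) was 0 with no filter, 3 at a mean of at least 5 FPKM, 3 with voom, 2 with the GC and length trend removed and 0 to 3 with 1 library left out. In the other antiviral list, the number higher (1) was 0 with no filter or no trend, 3 at a mean of at least 5 FPKM, 2 with median ratios, 4 with voom and 0 to 1 with 1 library left out; the number lower (2) was 1 with no filter or TPM, 6 with voom and 1 to 2 with 1 library left out. Nsun2 stayed at -0.51 with no filter (limma adjusted p = 0.113) and ran from -0.61 to -0.44 with 1 library left out. It was -0.89 with voom, -0.82 with a pseudocount of 0.1, -0.70 with TPM and -0.19 with a pseudocount of 5, past the threshold in all 4. Voom also called Ifit2, Herc6, Ifih1, Eif2ak2, Isg20 and Bst2. No called member changed sign; 11 of the 31 uncalled ones did under some alternative, none with a call. The no-filter fit tests more genes; otherwise the cause was not tested.

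Same-numbered libraries showed no shared deviation from their group means, with correlations across genes of -0.0095, -0.030 and 0.0034. The labels do not say whether same-numbered libraries were handled together, and these correlations cannot decide it. With a replicate block the genes changed, all tested, were 351, 3 members rose and 2 fell (Cmpk2, Ifit1, Ifit3b, Usp18 and Irf7 lost their calls, limma adjusted p from 0.0562 to 0.0907), and the other antiviral list had 0 higher; with the block and the GC and length trend removed they were 462.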
